A study of Mus musculus with 2 samples.

Results

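The CEBP factor genes Cebpa, Cebpb, Cebpd and Cebpg were the 4 members examined, of 21755 protein-coding genes of GENCODE M21 on chromosomes 1 to 19 and X. They were chosen by name. For each gene, peaks of the EP300 chromatin immunoprecipitation were taken whose summit lay in the gene body or within 100 kb of the most upstream annotated start. The material was whole stomach of newborn B6NCrl mice, taken on postnatal day 0, with no treatment or transgene named in the labels. There were 2 libraries in 1 group, numbered in the labels as biological replicates 1 and 2. Both are also labelled with the same tissue sample and donor. Whether differences between them are biological or technical can therefore not be told. With 1 group there was no condition to compare and no test was made. Whole tissue mixes epithelium, muscle, mesenchyme and blood cells, and a peak cannot be assigned to one of them. All 6 of the 6 stomach genes checked (Gkn1, Gkn2, Psca, Barx1, Acta2 and Myh11) had at least 1 optimal summit, a peak of the authors' reproducible set, by the same distance rule, against 50.3% of all genes. The strongest was nearest to another gene's start for 4 of the 6, and Gkn1 and Gkn2 share it.

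C/EBP proteins are basic leucine zipper transcription factors that bind DNA as homodimers or heterodimers, with one another and with ATF family partners. C/EBPα is known for driving differentiation in liver, fat and the myeloid lineage, C/EBPβ and C/EBPδ for being induced by cytokines and hormones, and C/EBPγ for lacking a classical activation domain and acting mainly as a heterodimer partner. EP300 is a histone acetyltransferase and coactivator that is found at active enhancers and promoters and that binds C/EBPβ. A CRE, the site of CREB and ATF factors, and an AP-1 site, the site of FOS and JUN dimers, are common in genes that respond to such signals.

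The optimal set is the list of peaks that passed the authors' reproducibility filter, the irreproducible discovery rate (IDR). It held 7733 peaks on these chromosomes. The signal of a peak is the strength given by the authors' peak caller. Each library's own list has a scale of its own. Of the 7733 optimal peaks, 7729 carry the same signal in the list of the pooled reads. The median optimal signal was 30.2, with quartiles of 23.7 and 39.7. Cebpa and Cebpg had 0 optimal summits in reach, Cebpb had 4 and Cebpd had 8. At least 1 optimal summit was thus in reach of 2 of the 4 CEBP genes, against 50.3% of all protein-coding genes, which is about the same share. The median gene had 1 optimal summit and the upper quartile was 2. At least 4 summits, as at Cebpb, were in reach of 13.3% of all genes, and at least 8, as at Cebpd, of 2.48%. In the conservative IDR set Cebpa and Cebpg again had 0 summits, Cebpb had 6 and Cebpd had 10, with 48.6% of all genes having at least 1. An optimal summit within 1 kb of the start was present at 0 of the 4 CEBP genes and at 10.2% of all genes.

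**Figure D1:**
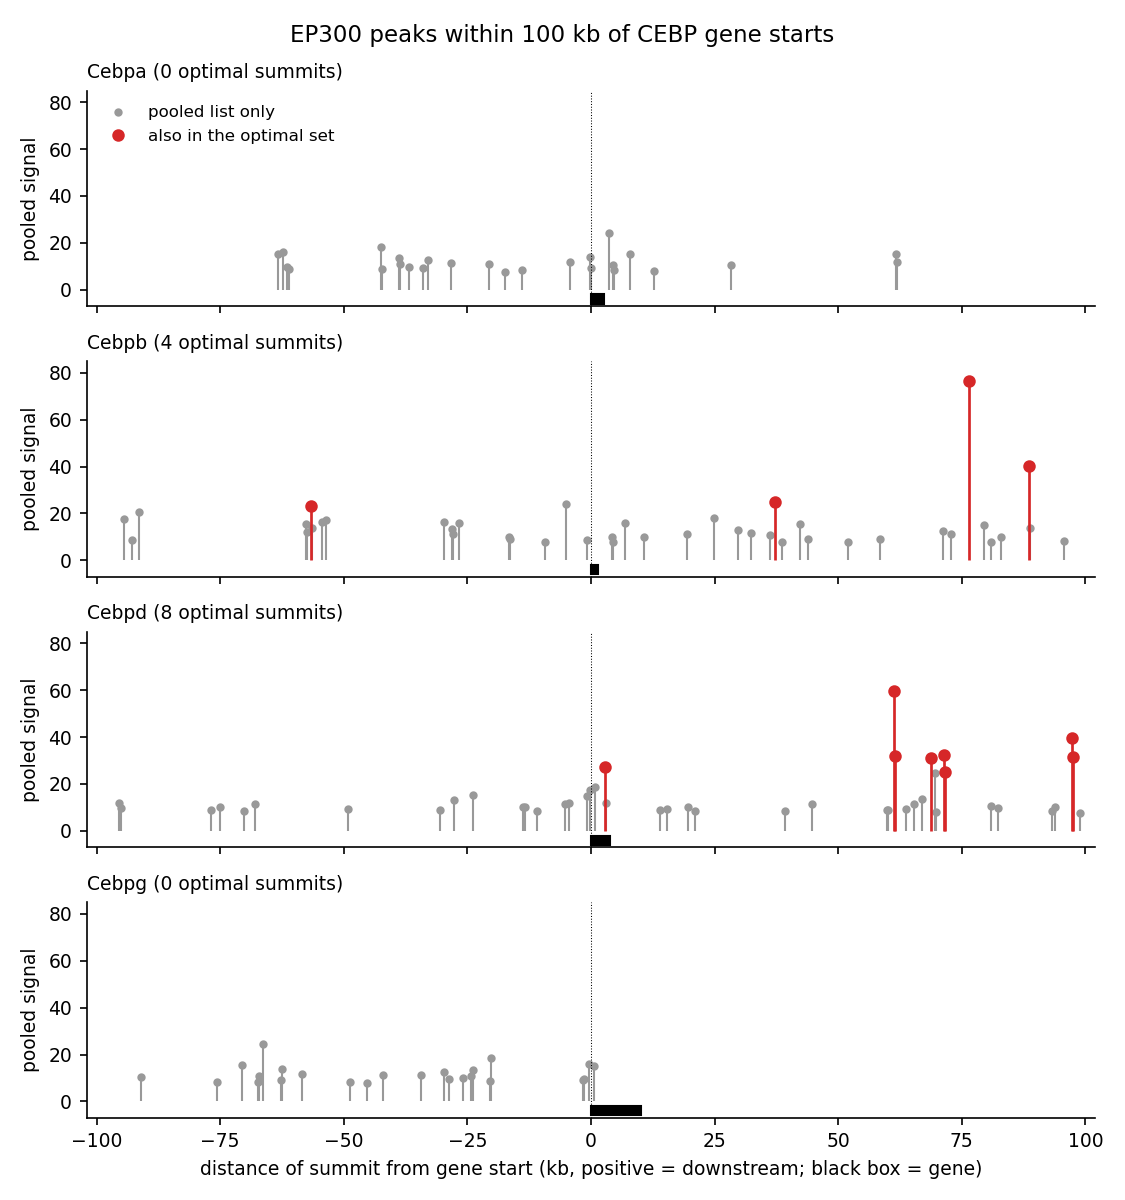
EP300 peaks of the pooled list by distance from the start of each CEBP gene (kb, positive is downstream in the direction of transcription), with height giving pooled signal on the scale of the peak caller; red marks peaks that are also in the optimal set and grey marks the others. Red peaks are in reach of Cebpb (4) and Cebpd (8), and the strongest grey peak near Cebpa and Cebpg, at 24.3, is 1 and the same peak.

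**Figure D2:**
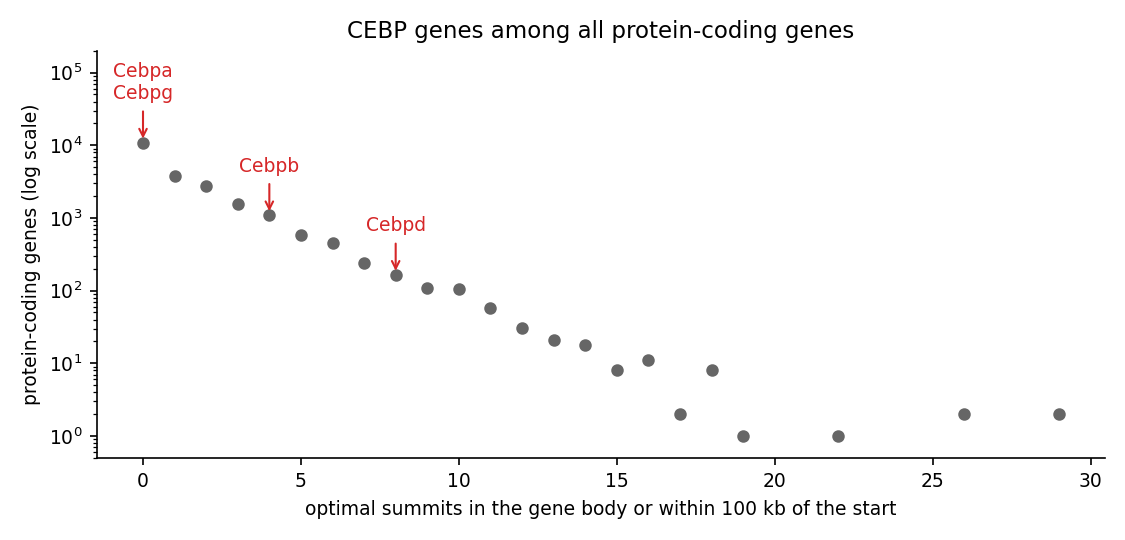
Number of protein-coding genes (log scale) by number of optimal summits in the gene body or within 100 kb of the start; each point is 1 count class and red labels give the class of each CEBP gene. Cebpa and Cebpg are in the class of 10814 genes with 0 summits, Cebpb in that of 1083 genes with 4, and Cebpd in that of 164 genes with 8.

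The sequences below are from peaks named in the results, some with motif sites and some with none. They are mm10 plus-strand sequence around the peak summits, in lower case, with every match to a searched motif in capitals. The motifs, searched on both strands, were the C/EBP site TTGCGCAA, the looser C/EBP form TTGCNNAA (which contains the first), the CRE TGACGTCA, the CRE half-site TGACG (contained in the CRE), the AP-1 site TGACTCA and the C/EBP-ATF composite TGATGCAA. The pair from Cebpb is the strongest peak in reach, with a CRE half-site near its summit and an AP-1 site farther out, and the peak with both a full CRE and an AP-1 site.
Cebpb, 76408 bp downstream, chr2:167765223-167765448 (+): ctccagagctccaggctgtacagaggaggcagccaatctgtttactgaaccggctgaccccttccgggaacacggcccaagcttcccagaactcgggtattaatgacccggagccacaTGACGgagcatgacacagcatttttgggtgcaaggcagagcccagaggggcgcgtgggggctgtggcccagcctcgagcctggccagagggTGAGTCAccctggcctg
Cebpb, 88676 bp downstream, chr2:167777464-167777691 (+): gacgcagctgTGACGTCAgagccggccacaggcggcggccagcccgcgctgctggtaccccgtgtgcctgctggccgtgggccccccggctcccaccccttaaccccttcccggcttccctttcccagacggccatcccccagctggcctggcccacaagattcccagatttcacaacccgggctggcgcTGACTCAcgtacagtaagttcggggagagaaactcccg
The sequence from Cebpd is that of its strongest peak, which held none of the motifs.
Cebpd, 61318 bp downstream, chr16:15948504-15948704 (+): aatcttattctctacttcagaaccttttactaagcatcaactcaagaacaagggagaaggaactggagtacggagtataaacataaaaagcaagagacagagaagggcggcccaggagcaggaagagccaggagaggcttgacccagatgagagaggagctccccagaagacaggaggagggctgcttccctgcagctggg
For Cebpa and Cebpg, which had no optimal summit, the strongest peak of the pooled list in reach of both is shown, together with the second strongest, which held an AP-1 site.
Cebpa, 3662 bp downstream, chr7:35122855-35123055 (+): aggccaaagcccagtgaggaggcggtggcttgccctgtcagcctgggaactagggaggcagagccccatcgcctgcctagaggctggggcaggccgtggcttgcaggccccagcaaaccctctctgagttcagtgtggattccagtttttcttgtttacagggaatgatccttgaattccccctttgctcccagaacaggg
Cebpa, 42450 bp upstream, chr7:35076743-35076943 (+): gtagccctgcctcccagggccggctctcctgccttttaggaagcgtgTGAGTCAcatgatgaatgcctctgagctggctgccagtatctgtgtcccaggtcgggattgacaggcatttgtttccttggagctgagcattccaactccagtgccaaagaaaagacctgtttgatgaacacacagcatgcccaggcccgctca

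Cebpa (ENSMUSG00000034957.10, chr7:35119293-35121928, plus strand) had no optimal or conservative summit in reach. Its nearest optimal summit was 277712 bp downstream, in a peak at chr7:35396725-35397284 with a signal of 45.3 whose nearest coding start was that of Cep89. For 28.4% of all genes the nearest optimal summit was farther away, and the median over all genes was 103029 bp. The pooled list, which ends at 300000 peaks and so goes far below the IDR filter, had 26 peaks in reach of Cebpa, against a median of 25 over all genes. The peak lists of replicate 1 and replicate 2 held 26 and 20 peaks there. The absence of an optimal summit is thus an absence from the filtered set, not of listed peaks.

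The strongest pooled peak near Cebpa lay 3662 bp downstream of its start, in intergenic sequence at chr7:35122675-35123234. Its signal was 24.3 in the pooled list, at rank 7602, which would be inside a list of the 7733 strongest pooled peaks. The strongest matching peak had a signal of 18.0 at rank 3895 in replicate 1 and of 9.51 at rank 23557 in replicate 2. The 2 libraries therefore placed it far apart in rank. Its pooled signal was above the 23.0 of the weakest Cebpb optimal peak. The second peak, 42450 bp upstream of Cebpa and 20270 bp upstream of Cebpg at chr7:35076563-35077122, had a pooled signal of 18.4. Replicate 2 listed it with a signal of 14.6 at rank 6069, and replicate 1 listed no summit inside it. At the Cebpa start itself the pooled peak 282 bp upstream had a signal of 13.8, and the matching library peaks had ranks of 20467 in replicate 1 and 232505 in replicate 2.

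Cebpg (ENSMUSG00000056216.9, chr7:35046422-35056573, minus strand) is the neighbour of Cebpa, in the opposite orientation. Their starts are 62720 bp apart, and the windows around them share 137281 bp, so both genes mostly count the same peaks. The nearest optimal summit of Cebpg was the same Cep89 peak, 340432 bp upstream of the Cebpg start. The pooled list held 24 peaks in reach of Cebpg. Of these, the one closest to its start lay 382 bp upstream with a pooled signal of 15.9, and signals of 9.11 in replicate 1 and 6.90 in replicate 2. A second, 679 bp downstream in a UTR exon, had a pooled signal of 15.3 and was matched in replicate 2 alone, at 10.1. Both are weak beside the optimal set, whose lower quartile was 23.7. The other coding genes with a start within 100 kb of Cebpa, Slc7a10 and Lrp3, also had 0 optimal summits in reach.

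Cebpb (ENSMUSG00000056501.3, chr2:167688915-167690418, plus strand) had 4 optimal summits, in 4 separate regions, all outside the gene. Their signals were 23.0, 25.05, 76.5 and 40.2 in order along the chromosome, with a median of 32.6 against 30.2 over all optimal peaks. The strongest, at chr2:167765043-167765602 and 76408 bp downstream of the start, ranked 356 in the optimal set and had an IDR score of 1000, the highest value the authors' scale gives. Its signal was 43.0 in replicate 1, at rank 308, and 34.4 in replicate 2, at rank 507. It was a strong peak in both libraries. It was intergenic, and the nearest coding start was that of Tmem189, 75501 bp away, with the Cebpb start 907 bp beyond.

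The peak 88676 bp downstream of the Cebpb start, at chr2:167777311-167777870, was in an exon of the lincRNA Gm14321, 124 bp from the start of that transcript. Its optimal signal of 40.2 ranked 1861, and its library signals were 26.5 in replicate 1 and 18.0 in replicate 2. The peak 37232 bp downstream, at chr2:167725867-167726426, was in an exon of the lincRNA A530013C23Rik, which starts 2262 bp from the Cebpb start. It was weaker, with a signal of 25.05 at rank 5451, and the libraries gave it 13.0 and 14.3. The only upstream peak, 56643 bp away at chr2:167631992-167632551, lay 177 bp from the start of Ube2v1, which encodes a ubiquitin-conjugating enzyme variant. Its signal was 23.0 at rank 5920, with 14.9 in replicate 1 and 14.8 in replicate 2. None of the 4 summits was nearer to the Cebpb start than to every other coding start, so distance alone does not tie them to Cebpb: 3 are nearest to Tmem189, whose start is almost that of Cebpb, and 1 to Ube2v1. All 4 were also in reach of Tmem189.

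In reach of Cebpb the pooled list also held peaks outside the optimal set. The strongest of them lay 5019 bp upstream at chr2:167683616-167684175, in an intron. Its pooled signal of 23.8, at rank 8037, was above the 23.0 of the weakest Cebpb optimal peak. The peak was listed in replicate 2 with a signal of 18.1 at rank 3211, and replicate 1 listed no summit inside it. The next, 91357 bp upstream with a pooled signal of 20.5, had 18.8 at rank 3363 in replicate 1 and 4.86 at rank 256626 in replicate 2, so the libraries placed it far apart. At 803 bp upstream a pooled peak had a signal of 8.57, at rank 217985. Replicate 1 gave it 7.98, and replicate 2 listed no summit inside it. By the strongest peak within 1 kb of the start in the pooled list, 62.4% of all genes were below Cebpb, against 92.3% by the strongest peak in the whole reach. In these shares a gene with no listed peak counts as below. The share within 1 kb is therefore not a rank among genes with a peak there. In replicate 1 the share within 1 kb was 71.8%, and in replicate 2 no peak was listed there.

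Cebpd (ENSMUSG00000071637.5, chr16:15887286-15891031, plus strand) had 8 optimal summits in 5 regions, all downstream of its start. Of these 8 peaks, 6 overlapped another optimal peak, against 0 of the 4 at Cebpb and 41% of all optimal peaks, so the count of 8 is a count of listed summits and 5 is the count of separate sites. Their signals ran from 25.2 to 59.8, with a median of 31.8. Only 1 lay in the Cebpd gene, 2912 bp past the start at chr16:15889918-15890477, in a UTR exon as GENCODE annotates it. The RefSeq gene ends earlier, and the summit is 653 bp past that end. Its signal was 27.4 at rank 4729, with 14.8 in replicate 1 and 12.4 in replicate 2. The nearest optimal summit was farther than this 2912 bp for 88.3% of all genes.

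The other 7 Cebpd summits all lay in introns of Spidr, a gene of DNA repair by homologous recombination that runs on the minus strand towards Cebpd. The Spidr start is 259565 bp from that of Cebpd, and the coding start nearest to all 7 was that of Cebpd. The summit 2912 bp past the Cebpd start also lay inside Spidr, so all 8 were in reach of both genes. Of them, 6 were also in reach of Mzt2, whose start is 23917 bp upstream of that of Cebpd. The strongest pair of overlapping peaks was 61318 and 61522 bp downstream, at chr16:15948324-15948883 and chr16:15948528-15949087, with optimal signals of 59.8 at rank 623 and 31.9 at rank 3383. Both were matched to the same library peaks, with a signal of 52.5 at rank 192 in replicate 1 and 16.7 at rank 4104 in replicate 2. Replicate 2 also listed a weaker peak 61162 bp downstream, with 16.0, which was not taken because only the strongest was matched. Among the CEBP optimal peaks, this was the site where the libraries stood farthest apart. The ratio of replicate 1 to replicate 2 was 3.15, a log2 ratio of 1.66, and 97.9% of the 6865 optimal peaks matched in both libraries had a lower one. Over those peaks the median log2 ratio was 0.02 and the central 95% ran from -1.50 to 1.59. Both summits were in sequence masked as repeats in the reference, the only 2 of the 12 CEBP summits that were, against 10% of all optimal summits; the part of the repeat in the difference between libraries was not tested.

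At the remaining Spidr sites the signals of the libraries were closer to each other. The single peak 68713 bp downstream, at chr16:15955719-15956278, had an optimal signal of 31.2, with 18.2 in replicate 1 and 16.1 in replicate 2. The overlapping pair 71405 and 71629 bp downstream, at chr16:15958411-15958970 and chr16:15958635-15959194, had optimal signals of 32.3 and 25.2 and shared library peaks of 13.2 in replicate 1 and 18.0 in replicate 2. The pair 97235 and 97437 bp downstream, at chr16:15984241-15984800 and chr16:15984443-15985002, had 39.5 and 31.6, with shared library peaks of 23.7 in replicate 1 and 21.3 in replicate 2. Replicate 1 also listed a weaker peak 97439 bp downstream, with 18.85, which the same rule did not take. Leaving the site at 61 kb aside, the libraries' signals at the Cebpb and Cebpd sites had percentiles between 26 and 76.6 among the replicate ratios of all matched optimal peaks.

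**Figure D3:**
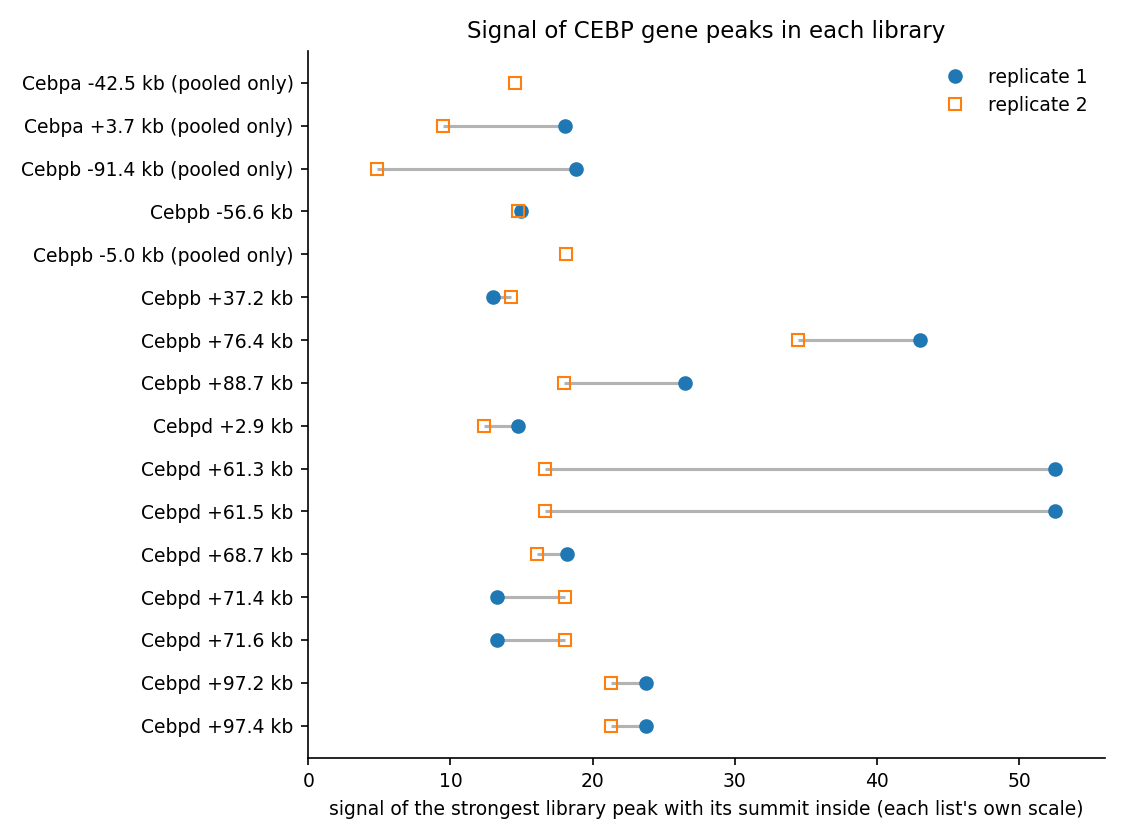
Signal in replicate 1 (blue circles) and replicate 2 (orange squares) at each CEBP optimal peak and at the 2 strongest peaks of the pooled list alone for Cebpa and for Cebpb, named by distance from the gene start; a grey line joins the libraries, and each list has a scale of its own. The Cebpd site at 61 kb, drawn for both of its overlapping peaks, has 52.5 in replicate 1 and 16.7 in replicate 2, and the Cebpa peak 42.5 kb upstream and the Cebpb peak 5.0 kb upstream have a point for replicate 2 alone.

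The Cebpd start was not without listed peaks. In the pooled list, a peak 752 bp downstream had a signal of 18.7 at rank 14997, and the libraries gave it 11.1 each. One 111 bp upstream had a pooled signal of 17.6, with 6.96 in replicate 1 and 13.3 in replicate 2. By the strongest peak within 1 kb of the start, 83.1% of all genes were below Cebpd in the pooled list, 81.4% in replicate 1 and 88.9% in replicate 2. For Cebpa the same shares were 75.9%, 79.8% and 63.2%, and for Cebpg they were 79.2%, 75.8% and 83.2%. Genes with no listed peak within 1 kb again count as below, so these are not ranks among genes with a peak there.

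Over the whole reach, the share of genes whose strongest peak was weaker differed between libraries for Cebpd and little for Cebpb. It was 93.5% in replicate 1 and 89.8% in replicate 2 for Cebpb, with peaks of 43.0 and 34.4. For Cebpd it was 96% in replicate 1 and 72.8% in replicate 2, with peaks of 52.5 and 21.3. Cebpa and Cebpg, which share their strongest peaks, had 59.5% in replicate 1 and 51.3% in replicate 2, near the middle of all genes. In the pooled list the order was Cebpb with 76.5, Cebpd with 59.8, then Cebpa and Cebpg with 24.3, but in replicate 1 Cebpd was above Cebpb. The order of Cebpb and Cebpd therefore did not hold across the libraries, while Cebpa and Cebpg were lowest in both.

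**Figure D4:**
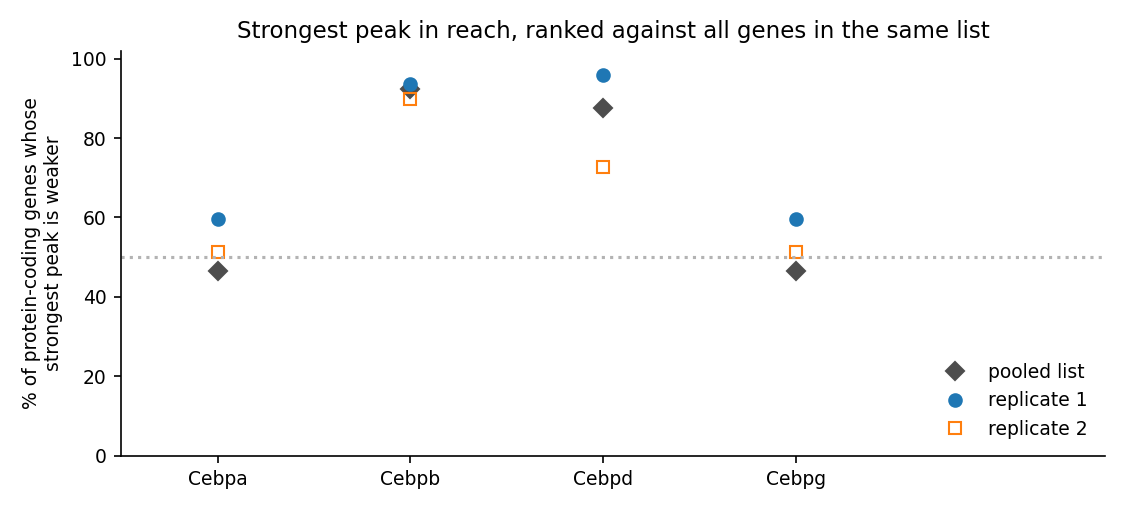
Share of protein-coding genes (%) whose strongest peak in the gene body or within 100 kb was weaker than that of each CEBP gene, within the pooled list (diamonds), replicate 1 (circles) and replicate 2 (squares); the dotted line marks 50%. Cebpb is at 89.8% or above in each list, Cebpd runs from 72.8% to 96%, and Cebpa and Cebpg lie between 46.4% and 59.5%.

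All 12 CEBP optimal peaks contained a peak summit of both libraries, against 88.8% of all optimal peaks. The same interval was in the conservative set for 11 of the 12, against 61.3% of all optimal peaks, and the other, the Cebpd peak 71629 bp downstream, contained a conservative summit. The conservative set held 5 further summits in reach. At Cebpb these were 56436 bp upstream and 88881 bp downstream, with signals of 13.6 and 13.7, and at Cebpd 3124 bp downstream with 12.0, each overlapping 1 optimal peak. A pair at 69556 and 69760 bp downstream of Cebpd, with signals of 24.8 and 8.22, overlapped no optimal peak. No optimal summit lay close beyond the reach of 100 kb. The outermost Cebpd summit inside it was 97437 bp away with a signal of 31.6, and the next one outside was 249540 bp upstream with 29.1. For Cebpb they were 88676 bp away with 40.2 and 145946 bp downstream with 40.9.

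The peaks of Cebpb and Cebpd lay in sequence of different base composition. Within 100 bp on each side of the summit, GC content ran from 59.2% to 67.7% at the 4 Cebpb summits, with 6 to 17 CpG dinucleotides. At the 8 Cebpd summits it ran from 35.8% to 50.7%, with 0 to 3 CpG. The ranges do not overlap. Over all optimal summits the quartiles of GC content were 44.3% and 59.2% and those of the CpG count 2 and 11, and 74.7% of all optimal summits were below the lowest Cebpb value. The median GC content was 50.7% over all optimal summits. It was 46.8% over those more than 10 kb from a coding start, as most CEBP summits were. Of the 4 Cebpb summits, 1 is 177 bp from the start of Ube2v1 and 1 is 124 bp from that of Gm14321.

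No C/EBP site TTGCGCAA lay within 100 bp of any of the 12 summits. The site was rare in general, with 16 of 7733 optimal summits (0.207%) having it. The looser form TTGCNNAA was at 0 of the 12, against 11.3% of all optimal summits, and the C/EBP-ATF composite at 0 of the 12, against 0.866%. In the whole peaks there was 1 looser match, 159 bp from the Cebpd summit at 71629 bp. A match or its absence describes the letters of these windows alone, and the 12 summits stand at only 9 separate sites.

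The full CRE was within 100 bp of 0 of the 12 summits, against 0.815% of all optimal summits. The half-site TGACG was at 4 of the 12, against 13.8%, and 9.38% of the optimal summits more than 10 kb from a coding start. The 4 were the Cebpb summits 37232 and 76408 bp downstream, with the site centred 12 and 20 bp from the summit, and the Cebpd summits 71405 and 71629 bp downstream, at 62 and 25 bp. AP-1 sites were at 2 of the 12, against 9.74%, and 13.7% of the optimal summits more than 10 kb from a coding start. Both were at Cebpb: TGAGTCA 97 bp from the summit beside Ube2v1 and TGACTCA 66 bp from the summit 88676 bp downstream. That last peak also held the full CRE TGACGTCA, 113 bp from its summit on the other side, as the capitals in its sequence show. The strongest Cebpb peak held a further AP-1 site, TGAGTCA, 112 bp from its summit. Among the Cebpd peaks no AP-1 site and no full CRE was found, in the window or in the whole peak. Of the strongest pooled peaks of the Cebpa and Cebpg region, the one 42450 bp upstream of Cebpa held TGAGTCA 50 bp from its summit, and the one 7918 bp downstream of Cebpa, with a pooled signal of 15.4, held a CRE half-site 11 bp from its summit.

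RefSeq promoter windows, 250 bases before to 50 after the start on GRCm38.p6, were matched for Cebpa, Cebpb and Cebpg, 3 of the 4 genes. The Cebpb window was the only one of the 3 with a match. It held 3 CRE half-sites, beginning 180, 53 and 7 bp before the start, whereas 20.8% of the 32851 promoter windows of the table held at least 1. The bases before the start are shown because these sites stand at a promoter with no optimal EP300 summit within 1 kb.
Cebpb promoter, chr2:167688665-167688914 (+): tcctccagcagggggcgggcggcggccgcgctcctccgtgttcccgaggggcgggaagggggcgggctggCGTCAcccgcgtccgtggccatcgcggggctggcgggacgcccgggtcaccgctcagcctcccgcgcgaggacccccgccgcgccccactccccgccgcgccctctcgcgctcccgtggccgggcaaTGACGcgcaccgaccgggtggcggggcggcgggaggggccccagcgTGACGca
The Cebpa and Cebpg windows held none of the motifs. The full CRE was in 1.79% of all windows, the looser C/EBP form in 10.8% and AP-1 in 5.2%.

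Genes that surround the C/EBP factors were counted by the same distance rule. In a list of 14 other family members and dimer partners, 10 had an optimal summit (71.4%, against 50.3% of all genes), with a median of 2 summits against 1. Tef and Dbp, bZIP factors of the circadian clock output, had 7 and 5 summits, and Atf4 and Atf5, stress-responsive factors that dimerise with C/EBP proteins, had 7 each. Atf4 had 3 of its summits within 1 kb of the start, and its strongest, at 73.8, was 112 bp from it. Cebpe, a further C/EBP family member, had 0, as did Creb1 and Batf. Cebpz, a CCAAT-binding protein of the same list that shares the name but is not a leucine zipper factor, also had 0.

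Of 15 genes of the signals known to induce Cebpb and Cebpd, 12 had an optimal summit (80%, against 50.3% of all genes), with a median of 1. Stat3, the factor that carries the interleukin 6 signal, had 6, with the strongest (74.6) 197 bp from its start. Il1r1, a receptor of interleukin 1, had 7, Rela, a subunit of NF-κB, had 6, and Tnf had 5, each with its strongest peak nearest to another gene's start. Il6, Socs3 and Lifr had 0. In the conservative set 9 of the 15 had a summit, against 48.6% of all genes. Of 15 regulators of C/EBP RNA or protein, 9 had an optimal summit (60%, against 50.3% of all genes), with a median of 1. Trib1, a pseudokinase that directs the degradation of C/EBPα, had 4, of which 3 were within 1 kb of its start, with a strongest signal of 30.2. Ptges3 had 7, Cdk2 had 6 and Rb1 had 2, and the strongest peak of each of these was nearest to another gene's start. Of 25 known C/EBP target genes of fat, liver and myeloid cells, 13 had an optimal summit (52%), close to the share of all genes. The highest counts were those of Slc2a4, the insulin-responsive glucose transporter, with 11, Elane, neutrophil elastase, with 10, G6pc, glucose-6-phosphatase, with 7, and Lcn2, lipocalin 2, with 3. For these 4 the strongest peak was nearest to another gene's start. Adipoq, Lep and Plin1, markers of fat cells, had 0. Of the same list, Pparg, Fabp4 and Cd36 had 1 each, and Lpl and Scd1 had 0.

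**Figure D5:**
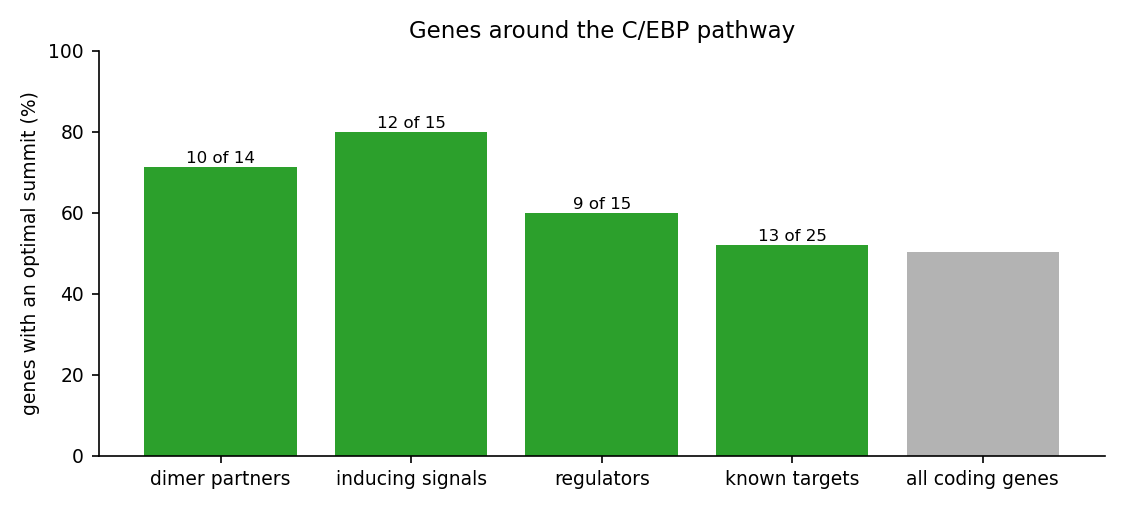
Share (%) of the genes in each list around the C/EBP pathway with an optimal summit in the gene body or within 100 kb of the start (green, with counts above the bars), beside all protein-coding genes (grey). The lists run from 52% for known targets to 80% for inducing signals, and the grey bar is at 50.3%.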

How the data were processed

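EP300 ChIP-seq of 2 stomach libraries was deposited as 5 narrowPeak lists (mm10). Each replicate and their pooled reads have a list, and the other lists are the optimal and conservative IDR sets. The signal of a peak is the deposited value of the authors' peak caller, not normalized between lists. The deposited score of the IDR sets is a scaled IDR score, and the deposited q column was likewise kept as a score. The deposited summit offset counts bp from the peak start. Of 7733 optimal peaks, 7729 had the same interval and signal (rounded to 2 decimals) in the pooled list. Per the readme texts deposited with the libraries, each replicate list came from its own alignment with further files, and the IDR sets from the pooled and replicate lists. The labels name possible controls without saying which list used which. The aligner and peak caller were not given in the sources used here. Lists hold peaks without read counts: depth is unknown, and no interval was computed. The 3 lists that were not filtered by IDR end at 300000 peaks each.

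Genes came from GENCODE M21. A library matched an optimal peak where a peak of its list had its summit inside, and the strongest was taken. Motif matches lay wholly within 100 bp of the summit, on either strand. Sequences came from the reference assembly of the same build, promoters from RefSeq (GRCm38.p6). The members and lists were chosen with earlier results of these data known. The text names all 4 CEBP genes with every optimal summit, the nearest coding start of each, the strongest pooled peaks where there was none, and up to 4 genes of each list with the most summits; other peaks and genes, among them those listed with 0 summits, were chosen after their values were seen. Alternatives were the conservative set, the stronger 3866 optimal peaks, the strongest peaks of single lists, shorter reaches, nearest start alone, merged peaks, other overlap rules and other motif windows. Counting was tested on simulated peaks. Tools were Python 3.11.15, NumPy 2.4.6, pandas 2.3.3, pysam 0.24.0 and matplotlib 3.10.9.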

Additional observations from a re-analysis of the deposited data

How the results depend on the processing

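Of 62 alternative values, 43 stayed within 1.5 times the reported count. Cebpa and Cebpg had 0 optimal summits, and 1 each among the 7733 strongest pooled peaks. With either library left out, that is among the 7733 strongest peaks of the other library's list, each gene also had 1 (range 1 to 1). The 2 libraries gave different peaks. In replicate 1 it matched the pooled peak 3662 bp downstream of Cebpa, at rank 3895 there and 23557 in replicate 2. In replicate 2 it matched the one 42450 bp upstream, at rank 6069, which had no summit in replicate 1. With a library left out, Cebpb had 5 to 7 against 4, and Cebpd had 5 to 6 against 8; the highest Cebpb count and the lowest Cebpd count were those without replicate 1. Taking the stronger 3866 optimal peaks left Cebpb with 2. A reach of 50 kb left Cebpb with 1 and Cebpd with 1, and a reach of 20 kb left 0 and 1. Counting each summit for the nearest coding start alone left Cebpb with 0. Merging overlapping peaks left Cebpd with 5. Searching the whole peak gave 1 summit with the looser C/EBP form and 1 with the full CRE, against 0 for both, and a window of 50 bp on each side gave 0 with AP-1, against 2. At 50 kb the regulators with a summit were 4 of 15, against 9 at 100 kb, while the share over all genes was 37%, against 50.3%. In the conservative set the regulators with a summit were 12 of 15, and the share over all genes was 48.6%. Support by both libraries and by the conservative set held for all 12 summits under each overlap rule. The rule of an overlap by at least 1 bp could not give fewer, since a summit inside a peak already meets it. Its values are among the 43. The cause of these changes was not tested. The shorter reaches, the shorter window, the smaller set and the merging could only lower a count or leave it as it was. The search of the whole peak covers more bases. Unknown depth and single scales per list limit all comparisons between libraries.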
